A study of Danio rerio with 75 samples.

Results

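The ubiquitin specific proteases are the largest family of deubiquitinases, the enzymes that cut ubiquitin off proteins. Here they are the rows of a zebrafish gene count table whose symbol, ignoring case, is usp followed by a number, and there were 48 such rows among 32677 in all. Of the 48, 36 symbols end with the number and 12 carry a letter or a copy mark such as (2 of 3), the annotation's way of naming duplicated genes. Rows such as usp6nl and uspl1 are not members. The row written USP6 is described by the annotation as ubiquitin specific peptidase 32, and the name table pairs usp9 with USP9Y.

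Transcriptomes of male zebrafish were sequenced at 5 ages from 3 tissues (brain, liver, skin) to follow ageing. The 73 grouped libraries comprised 5 of brain and 5 of skin at every age (6, 12, 24, 36, 42 months). Liver had 4 libraries at 6 and at 12 months and 5 at each later age. In the grouped libraries, fish of 6 and 24 months had no listed transgene and fish of 12 months carried Tg(flk:mCherry). Fish of 36 months carried Tg(pu.1:GFP) and fish of 42 months Tg(wt1a:GFP). All were of the strain labelled AB JxTu. The 2 libraries in no group, of 6 and 12 months, are labelled Tg(wt1a:GFP). Their fish numbers recur in skin 6 months replicate 3 and brain 12 months replicate 5, which are labelled as above, so the line labels of these fish conflict. Since each line of the grouped libraries belongs to 1 age, age and line cannot be told apart except at 24 against 6 months. Brain libraries of 6 months are pools of 2 fish, and every other brain library is of 1 fish. Pooling and the age of 6 months therefore cannot be told apart in brain, at 24 against 6 months as well. In what follows, old means 36 and 42 months together and young means 6 months.

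Ubiquitin is attached to proteins by the E1, E2 and E3 enzymes and marks them for the proteasome, for sorting into endosomes and lysosomes, or for a change of partner. Deubiquitinases reverse these marks, trim the chains and return free ubiquitin to the pool. Most ubiquitin specific proteases are cysteine proteases with a shared catalytic fold and with different flanking domains that set where each one acts: at the proteasome, on histones, on endosomes, or on the membranes of mitochondria and the endoplasmic reticulum.

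Library totals ran between 29006611 and 44324353 counts in brain, 31306947 and 58166358 in liver, and 32925263 and 48935972 in skin. Markers of the labelled tissue were high in each tissue, with a single liver library apart from the rest. Liver 24 months replicate 1 held 5460 CPM (counts scaled to a fixed library size) of 6 summed liver markers, against 17396 in the next lowest liver library and a median of 74455, together with 7831 CPM of intestine and 28490 CPM of exocrine pancreas markers. Intestine markers exceeded 2000 CPM in 9 of the 23 liver libraries. Summed exocrine pancreas markers in liver ranged between 17.8 and 835 CPM at 6 months and 1187 and 23133 at 12. They ranged between 69.6 and 28490 CPM at 24 months, 15.7 and 102168 at 36, and 857 and 26918 at 42. The part of pancreas RNA in the liver age comparisons was not tested. In skin, 8 summed skeletal muscle markers ranged between 10104 and 23132 CPM at 6 months, 10865 and 29730 at 12, 4774 and 17852 at 24, 1534 and 32110 at 36, and 1582 and 10698 at 42 months. In these whole tissues fewer cells of a type and less RNA per cell cannot be told apart.

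On the scale of library totals, the family was measured at its highest level in brain. Summed over the 48 members, the deposited RPKM (read counts scaled by exon length and library size) averaged between 591 ± 34.5 at 24 months and 643 ± 19.4 at 6 months in brain (SD, n = 5 each). In skin it averaged between 366 ± 12.2 at 6 months and 450.3 ± 57.4 at 24 months (SD, n = 5 each). In liver it averaged between 157 ± 42.9 at 42 months and 298 ± 57.9 at 24 months (SD, n = 5 each). RPKM follow library totals, on which the median of all genes was 1.40 higher in brain than in liver on the log2 scale. CPM were also summed, scaled within each tissue by the trimmed mean of M values (TMM). In skin these sums averaged 1547 ± 54.0 at 6 months and 1654 ± 86.8 at 24 months (SD, n = 5 each). In liver they averaged 882 ± 60.3 at 6 months (SD, n = 4), 927 ± 161 at 24 and 666 ± 30.5 at 42 months (SD, n = 5 each).

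In length-corrected units, usp5, which takes apart unanchored ubiquitin chains, led in all 3 tissues. Brain averaged 46.2 ± 4.08 RPKM of it (SD, n = 25). Skin had 29.0 ± 7.23 RPKM (SD, n = 25), and liver 18.05 ± 8.11 RPKM (SD, n = 23). In brain it was followed by usp33, a receptor trafficking enzyme, at 41.9 ± 4.13 RPKM, and usp9, at 34.2 ± 2.97. Then came usp2a at 30.6 ± 10.2, USP54 (2 of 2) at 27.8 ± 6.55 and usp54a at 25.3 ± 5.52 RPKM, 3 levels that lay within 1 SD of each other. In liver usp36, a nucleolar enzyme, averaged 14.7 ± 7.89 RPKM, and usp14, which sits on the proteasome, 13.3 ± 8.62. They were followed by usp8, a regulator of receptor sorting, at 12.0 ± 5.39, usp10 at 11.7 ± 6.91 and usp9 at 11.3 ± 4.05 RPKM. The 6 leading liver levels had overlapping SD ranges over the same 23 libraries, and genes were not compared with each other within libraries. In skin the next were usp9 at 23.6 ± 2.98, USP2 (3 of 3) at 22.4 ± 14.8, USP2 (2 of 3) at 20.9 ± 14.8, usp25 at 20.3 ± 3.32 and usp10 at 18.8 ± 4.65 RPKM.

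The lowest member was USP21, a histone H2A enzyme in mammals, in every tissue. It averaged 0.184 RPKM in brain, had only 8 reads over all liver libraries with 16 of 23 at 0, and 24 reads over all skin libraries with 13 of 25 at 0. Other low members differed by tissue. They were usp28 at 0.199, usp43a at 1.14 and USP53 (1 of 2) at 1.94 RPKM in brain. In liver they were usp53b at 0.157, USP54 (2 of 2) at 0.228 and usp43a at 0.422 RPKM. In skin they were USP43 (2 of 2) at 0.0812, USP30 (3 of 3) at 0.420 and usp53b at 0.642 RPKM. A filter on low counts left 47 members for testing in brain, 47 in liver and 46 in skin. USP21 did not pass within any tissue and USP30 (3 of 3) did not pass in skin, and all 48 were tested when the 3 tissues were fitted together. In liver usp28 was at 0 in 4 libraries and usp43a in 1.

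Most members were called in each comparison of tissues, as were most of all genes. The sizes of the differences by tissue and by age were not compared. With all 73 libraries in a fit scaled by the trimmed mean of M values (TMM), 22 of 48 members were higher in brain than in liver (45.8%, against 42.0% of all 25360 genes tested) and 15 were lower (31.2%, against 43.1%). Brain against skin gave 22 members higher (45.8%, background 41.0%) and 14 lower (29.2%, background 42.4%). Liver against skin gave 19 members higher (39.6%, background 36.9%) and 14 lower (29.2%, background 36.6%). On this scale the share of members called lower was under the background in each comparison.

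The counts by direction depended on the scale. With library totals in place of TMM, 43 members were higher in brain than in liver (89.6%, against 68.6% of all genes) and 1 was lower (2.08%, against 19.8%). The median of all genes was itself displaced there by 1.40 on the log2 scale. For brain against skin the same change gave 34 higher (70.8%, against 51.7%) and 7 lower (14.6%, against 32.3%), with a median of all genes of 0.42. For liver against skin it gave 2 higher (4.17%, against 14.3%) and 39 lower (81.2%, against 69.8%), with a median of -0.98, so that the share of low calls lay above the background on this scale. The TMM values are thus relative to the bulk of genes in each tissue.

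**Figure D1:**
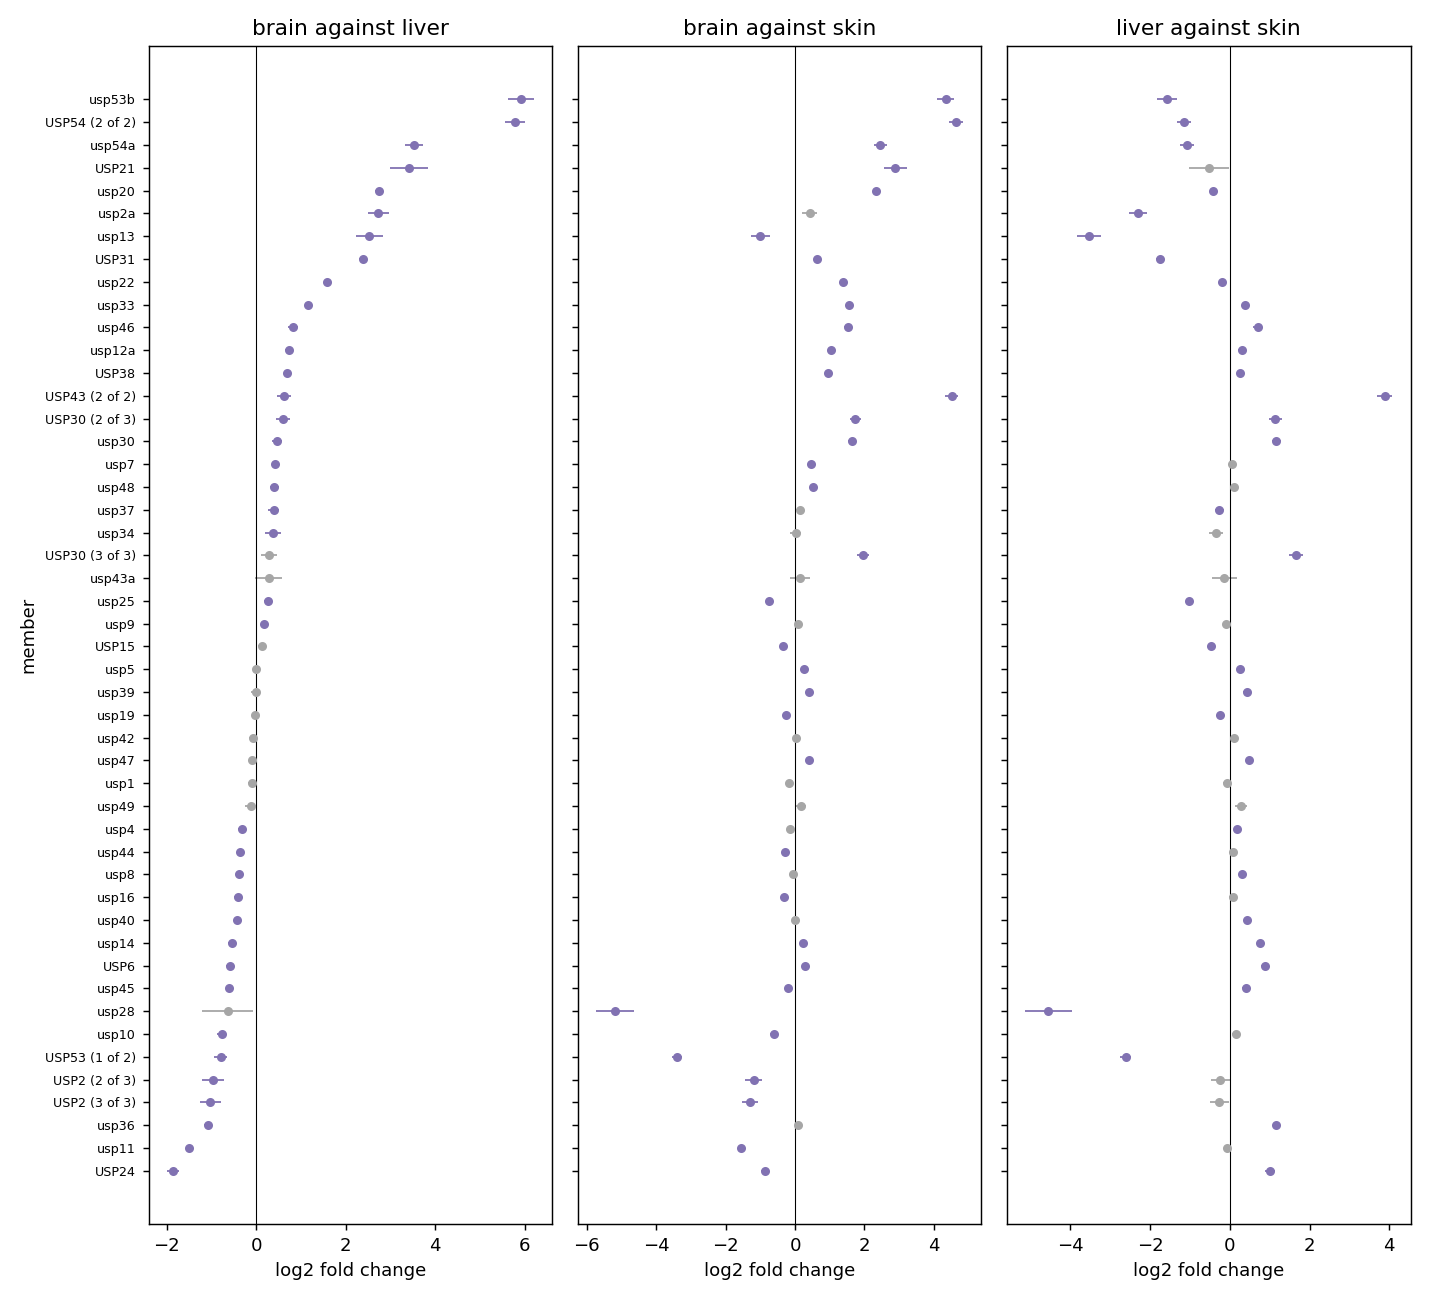
Log2 fold change of each of the 48 members between tissues, averaged over the 5 ages, with bars of 1 SE. Coloured points passed an adjusted p of 0.05; usp53b and USP54 (2 of 2) lie farthest right for brain against liver at 5.91 and 5.79, and usp28 and USP53 (1 of 2) farthest left for brain against skin at -5.19 and -3.41.

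The members most enriched in brain were usp53b, which the annotation describes as an inactive enzyme, USP54 (2 of 2) and usp54a. In mammals USP53 is found at cell junctions. On the TMM scale of all libraries usp53b ranged between 25.4 and 44.3 CPM in brain, against 0.132 and 4.44 in liver and 0.579 and 4.79 in skin. USP54 (2 of 2) ranged between 53.3 and 137.97 CPM in brain, against 0.417 and 6.20 in liver and 1.40 and 5.38 in skin. No brain library overlapped with any library of the other tissues for either gene. The log2 fold changes of brain against liver were 5.91 ± 0.29 for usp53b and 5.79 ± 0.22 for USP54 (2 of 2) (SE, adjusted p = 7.88e-28 and 2.30e-33). Those of brain against skin were 4.34 ± 0.25 and 4.64 ± 0.19 (SE). The paralog usp54a was 3.53 ± 0.19 higher in brain than in liver and 2.46 ± 0.18 higher in brain than in skin on the log2 scale (SE).

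Another brain-high member was usp20, a relative of usp33 that acts on receptors and on the hypoxia pathway in mammals. It ranged between 59.0 and 75.5 CPM in brain, against 4.79 and 17.1 in liver and 8.83 and 20.5 in skin, with no overlap. Its log2 fold change was 2.74 ± 0.09 against liver and 2.33 ± 0.08 against skin (SE, adjusted p = 5.26e-37 and 1.24e-34). USP43 (2 of 2) differed from its copy usp43a in this respect. USP43 (2 of 2) ranged between 3.37 and 9.57 CPM in brain, 1.16 and 11.1 in liver and 0.0507 and 0.661 in skin, so that it was 4.51 ± 0.19 higher in brain and 3.89 ± 0.18 higher in liver than in skin on the log2 scale (SE). The ranges of usp43a overlapped in all tissues, with 1.22 to 4.27 CPM across brain libraries, 0 to 10.6 CPM across liver libraries and 1.101 to 4.80 CPM across skin libraries.

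All 3 rows of usp30, which opposes the clearance of damaged mitochondria in mammals, were higher in brain and in liver than in skin on the TMM scale. The log2 fold change of liver against skin was 1.17 ± 0.12 for usp30, 1.14 ± 0.17 for USP30 (2 of 3) and 1.66 ± 0.18 for USP30 (3 of 3) (SE). With library totals these became 0.13, 0.13 and 0.65, and USP30 (3 of 3) alone still passed the test. Within skin, however, USP30 (3 of 3) did not pass the filter on low counts. It was tested here only because the tissues were fitted together, so its value against skin rests on low skin counts. For usp36 the value of 1.17 ± 0.09 for liver against skin became 0.17 and no longer passed, and for USP24, an enzyme linked to the DNA damage response, the value of 1.00 ± 0.13 became -0.09.

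Members lower in brain than in skin were led by usp28, which acts on Myc and on the DNA damage checkpoint in mammals. It ranged between 0.0820 and 2.31 CPM in brain, against 0.931 and 40.6 in skin, and the log2 fold change was -5.19 ± 0.54 (SE, adjusted p = 2.02e-13). USP53 (1 of 2) likewise had 0.595 to 2.04 CPM in brain and 0.736 to 4.74 CPM in liver, against 6.12 to 16.6 CPM in skin. Skin did not overlap with either tissue for this gene, and the log2 fold change was -3.41 ± 0.15 for brain and -2.61 ± 0.15 for liver, each against skin (SE). Its relative usp53b had the opposite order, high in brain and low in skin.

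In liver usp28 was near 0 with a single exception. Scaled within liver, it had 91.0 CPM in liver 24 months replicate 1, the library low in liver markers, against at most 0.774 CPM in the other 22 liver libraries. The same library held 38.0 CPM of usp13, a paralog of usp5, and 73.9 CPM of usp2a, against at most 1.56 and 14.3 CPM in the others. Liver against skin gave -4.55 ± 0.58 for usp28, -3.53 ± 0.31 for usp13 and -2.31 ± 0.23 for usp2a (SE). Within 24 months alone the value for usp28 was 0.82. Without that library the values over all ages were -6.27 for usp28, -4.21 for usp13 and -2.65 for usp2a. Also lower in liver than in skin was USP31 at -1.76 ± 0.085 (SE), a member linked to nuclear factor kappa B.

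USP24, usp11, usp36, USP2 (3 of 3), USP2 (2 of 3) and USP53 (1 of 2) were the lowest called members of brain against liver, at log2 fold changes between -1.86 and -0.79. With library totals USP24 was at -0.32 and usp11 at -0.06, while the other 4 changed direction, at 0.38 for usp36, 0.36 and 0.43 for the USP2 rows and 0.57 for USP53 (1 of 2). Apart from USP24, a lower level of these members in brain than in liver held only relative to the bulk of genes.

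Across age, the member that fell in every tissue was usp19 (ENSDARG00000004132). It is anchored to the endoplasmic reticulum in 1 of its forms and takes part in the degradation of misfolded proteins there in mammals. CPM below are scaled by TMM within each tissue, so that levels compare libraries of a tissue and not tissues.

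**Figure D2:**
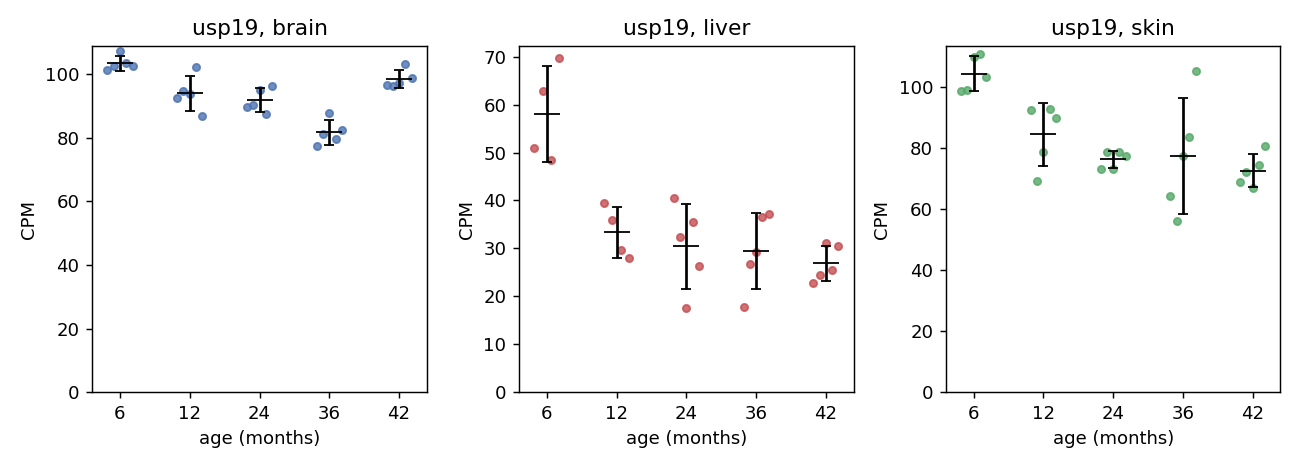
Level of usp19 in each library by age, in CPM, for brain, liver and skin, with points for libraries and a bar for the mean ± SD of 5 libraries (4 in liver at 6 and 12 months). All liver libraries of 12 months and over sit at 40.6 CPM or below, and all 4 of 6 months at 48.4 CPM or above.

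In liver usp19 had 17.8, 26.7, 29.2, 36.5 and 37.1 CPM at 36 months and 22.8, 24.4, 31.0, 25.4 and 30.6 CPM at 42 months, against 50.9, 62.9, 48.4 and 69.6 CPM at 6 months. Old and young libraries did not overlap. The mean was 28.2 ± 6.00 CPM in old liver (SD, n = 10) and 58.0 CPM in young liver (n = 4), and the log2 fold change was -1.04 ± 0.20 (SE, adjusted p = 0.044). It was the only 1 of 47 members called in old against young liver, where 0.152% of all 21045 genes tested were lower and 0.0380% were higher. The call was lost in 16 of 23 fits that left out 1 library, with values between -1.13 and -0.93 and adjusted p up to 0.16. It held only without liver 24 months replicate 1, 2 or 3, 36 months replicate 1 or 4, or 42 months replicate 3 or 5. It was also lost with library totals (-1.17, adjusted p = 0.20), with limma voom (adjusted p = 0.091) and with no filter on low counts (adjusted p = 0.068). A fit of only 6, 36 and 42 months lost it too (adjusted p = 0.12). Without the 9 libraries high in intestine markers the value was -1.25. That fit kept 2 libraries at 6 months and 1 at 12 months, so its calls are not given. DESeq2 called usp19 at -1.07 together with usp4 at -0.72.

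In skin usp19 had 64.2, 56.0, 77.3, 83.5 and 105 CPM at 36 months and 68.6, 72.2, 66.9, 74.2 and 80.5 CPM at 42 months, against 98.5 CPM in the lowest, 102.97 CPM in the median and 110.6 CPM in the highest of the 5 libraries of 6 months. A single old library reached the young range. The log2 fold change was -0.48 ± 0.11 (SE, adjusted p = 0.0046), and it passed in all 34 alternatives run.

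In brain the change was smaller and differed between both old ages. The levels were 77.4, 81.0, 87.7, 79.7 and 82.4 CPM at 36 months and 96.5, 96.3, 97.1, 103.03 and 98.8 CPM at 42 months, against 101.1, 102.5, 107.3, 103.5 and 102.6 CPM at 6 months. All libraries of 36 months lay below the young ones, and 1 of 42 months lay among them. Old against young gave -0.21 ± 0.04 and 42 against 36 months gave 0.27 ± 0.05 on the log2 scale (SE, adjusted p = 0.0010 and 0.00027).

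The difference of the age effect between tissues was tested in the fit of all libraries. For usp19 the effect in brain minus that in liver was 0.84 ± 0.18 on the log2 scale (SE, adjusted p = 0.0040). It held in all 19 alternatives, between 0.73 and 0.97, of which 14 left out 1 library of 6 months. Single libraries of the other ages were not left out there. For liver minus skin the usp19 difference was -0.57 ± 0.18 (SE, adjusted p = 0.073) and for brain minus skin 0.27 ± 0.18 (SE, adjusted p = 0.65). Of 48 members, 2 passed for brain against liver (4.17%, against 4.70% of all genes), 0 for brain against skin (background 0.931%) and 1 for liver against skin (2.08%, background 2.93%). Among the 48, 3 had an unadjusted p under 0.05 for brain against skin by edgeR, a count without the share of all genes beside it. There limma voom also called 0, while voom with the fish as a block called USP31 at -0.72 ± 0.19 (SE, adjusted p = 0.031).

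The other difference between brain and liver was that of USP53 (1 of 2), at -1.39 ± 0.40 (SE, adjusted p = 0.031). Its old libraries ran from 0.903 to 2.87 CPM and its young ones were 2.15, 2.44, 1.52, 1.96 and 3.14 CPM in brain. Its old libraries ran from 0.413 to 2.38 CPM and its young ones were 0.893, 0.580, 0.467 and 0.584 CPM in liver. Old and young overlapped in both tissues, and the call was lost in 7 of 19 alternatives: library totals, limma voom, the fish block, and leaving out brain 6 months replicate 5 or liver 6 months replicate 2, 3 or 4 (adjusted p up to 0.15). The 1 call for liver against skin was usp33 at -0.68 ± 0.20 (SE, adjusted p = 0.049), lost in 14 of 19 alternatives with adjusted p up to 0.29. Among the 14 fits without 1 library of 6 months it held only without brain replicate 5, liver replicate 3 or 4, or skin replicate 2.

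In brain, 4 of 47 members were higher in old than in young fish (8.51%, against 8.97% of all 23028 genes) and 7 were lower (14.9%, against 10.6%). The median log2 fold change was -0.02 over the members and -0.01 over all genes. In skin 2 of 46 members were higher (4.35%, against 7.81% of all 22429 genes) and 1 was lower (2.17%, against 7.32%), with a median of -0.04 over the members and 0.01 over all genes. The members' shares stood near the background in brain and below it in skin. Leaving out skin 6 months replicate 1 gave 5 calls in skin, against 3 with all libraries. The share of all genes in that fit is not given.

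**Figure D3:**
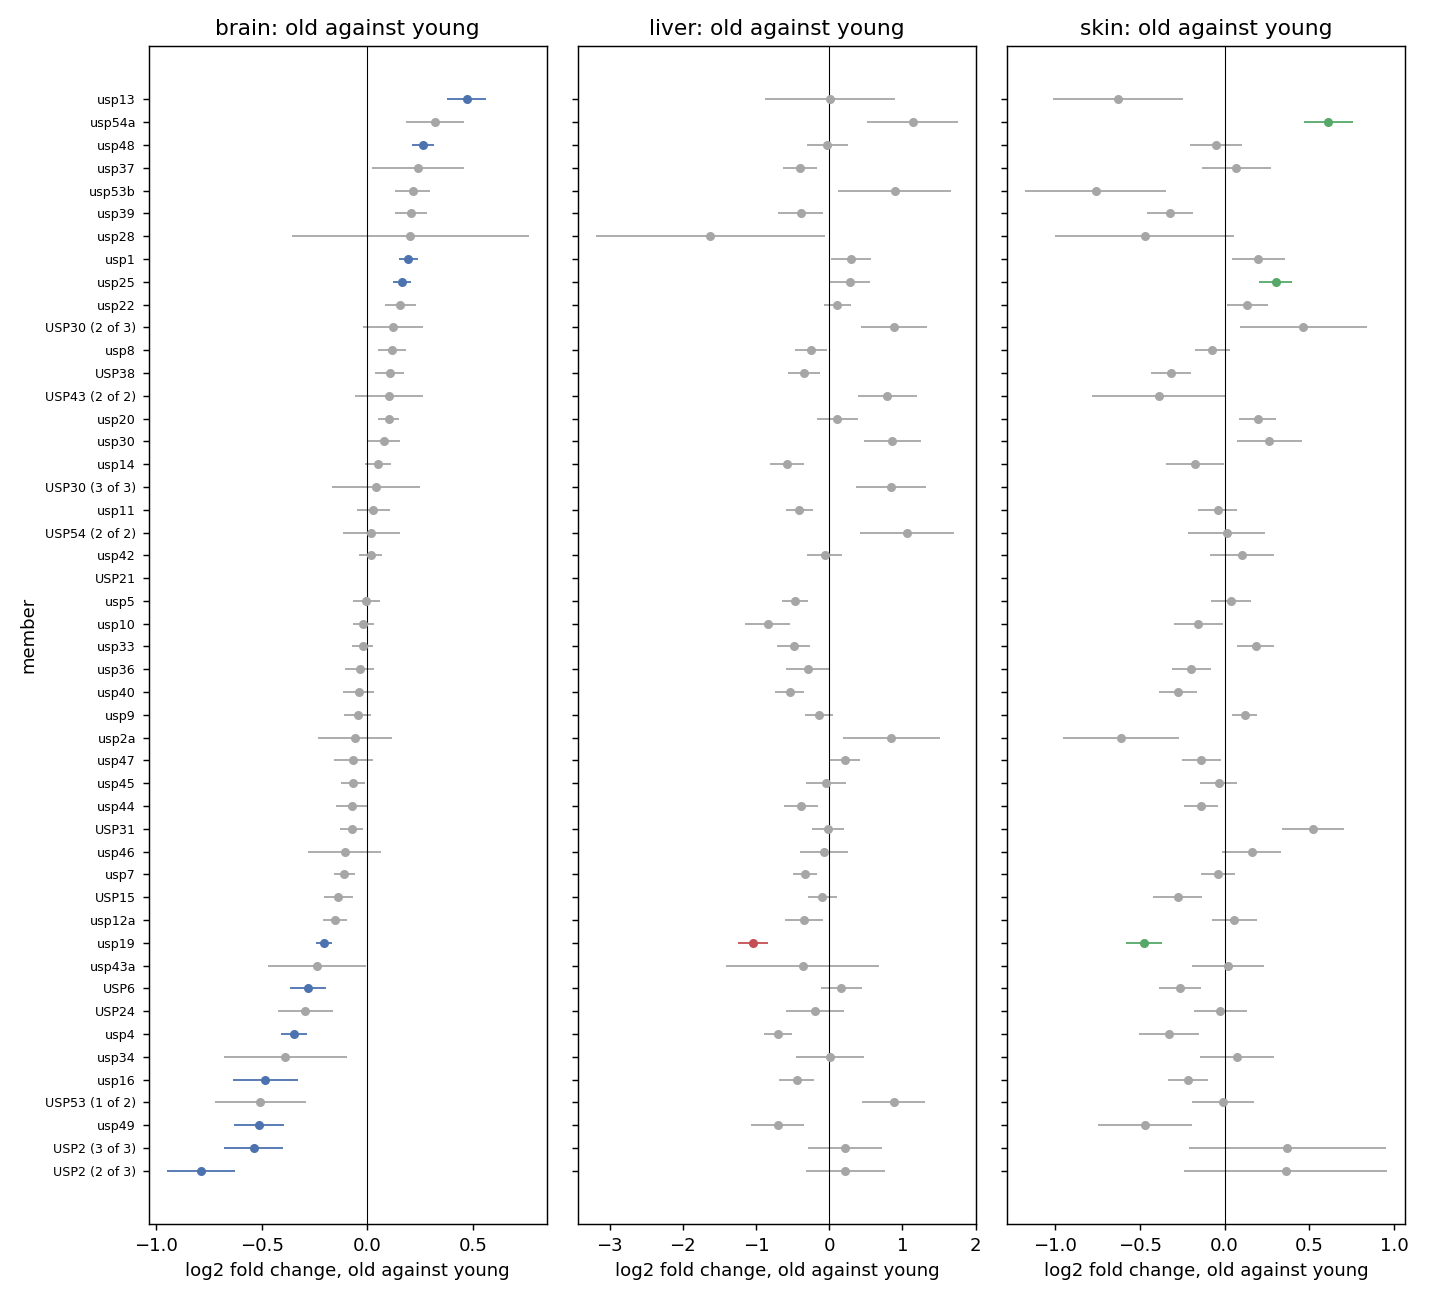
Log2 fold change of each member, old (36 and 42 months) against young (6 months), in brain, liver and skin, with bars of 1 SE. Coloured points passed an adjusted p of 0.05; they number 11 in brain, 1 in liver and 3 in skin, and usp19 is left of 0 in each.

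Among enzymes of free chains and the proteasome, usp13 rose in old brain. It had 29.0, 31.1, 30.2, 28.6 and 23.5 CPM at 36 months and 22.1, 19.1, 18.4, 16.4 and 22.2 CPM at 42 months, against 16.0, 16.2, 18.2, 18.4 and 16.5 CPM at 6 months. Every library of 36 months lay above the young ones, and those of 42 months overlapped with them. The log2 fold change was 0.47 ± 0.09 (SE, adjusted p = 0.0013). usp5 and usp14 were not called in brain.

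Of the 7 tested histone and chromatin enzymes, usp49 and usp16 were lower in old brain, where 10.6% of all genes were. usp49, which removes ubiquitin from histone H2B in mammals, had 8.10, 7.93, 5.60, 5.43 and 5.66 CPM at 36 months and 7.01, 7.14, 7.05, 7.49 and 6.55 CPM at 42 months, against 9.82, 9.71, 9.87, 10.6 and 8.52 CPM at 6 months. It was the only called member of this comparison in brain whose old and young libraries did not overlap, where 1.72% of all genes were lower without overlap. Its log2 fold change was -0.51 ± 0.12 (SE, adjusted p = 0.0045). usp16, an H2A enzyme, averaged 24.7 CPM in old and 34.5 CPM in young brain, with a log2 fold change of -0.48 ± 0.15 (SE, adjusted p = 0.030). That call was lost when any of brain 6 months replicates 1, 2, 4 or 5 or 42 months replicate 5 was left out, with adjusted p up to 0.079.

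Of the members that bind the cofactor WDR48, usp1, which acts on Fanconi anaemia and replication proteins, rose. It averaged 32.1 CPM in old and 27.9 CPM in young brain, a log2 fold change of 0.19 ± 0.04 (SE, adjusted p = 0.0038). Its highest level was at 12 months, where the libraries had 39.2, 40.8, 37.2, 40.7 and 41.2 CPM, above every library of every other age. wdr48 itself was 0.20 ± 0.06 higher in old brain (SE, adjusted p = 0.028), and usp12a and usp46 were not called.

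Both endoplasmic reticulum enzymes were called in brain and in skin, in opposite directions. usp25 had 78.3, 78.9, 73.6, 80.6 and 74.9 CPM at 36 months and 67.001, 64.6, 71.5, 63.5 and 69.8 CPM at 42 months in brain, against 61.4, 65.6, 66.6, 68.0 and 60.6 CPM at 6 months. The libraries of 36 months lay above the young ones and those of 42 months overlapped with them, for a log2 fold change of 0.16 ± 0.04 (SE, adjusted p = 0.0094). In skin usp25 averaged 89.0 CPM in old and 71.9 CPM in young fish, at 0.30 ± 0.10 on the log2 scale (SE, adjusted p = 0.038). That skin call was lost in 17 of 25 fits that left out 1 library, with values between 0.24 and 0.41 over all alternatives and adjusted p up to 0.15. Those fits left out any 6-month or 12-month library, 24 months replicate 3 or 5, 36 months replicate 3, 4 or 5, or 42 months replicate 2 or 4. The call was also lost with muscle markers as a covariate, without a filter and with only 6, 36 and 42 months fitted.

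Of the relatives usp4, USP15 and usp11 and the splicing factor usp39, usp4 fell in brain. It had 54.2, 64.3, 62.3, 56.9 and 66.5 CPM at 36 months and 68.2, 70.6, 61.9, 78.0 and 57.5 CPM at 42 months, against 83.1, 79.5, 88.5, 78.6 and 78.0 CPM at 6 months. The old libraries lay below the young ones apart from 1 of 42 months, which reached the lowest of them. The log2 fold change was -0.35 ± 0.06 (SE, adjusted p = 0.00055), the smallest p of any member in this comparison. usp39 was higher in every old than in every young brain library, yet missed the threshold at 0.21 ± 0.08 (SE, adjusted p = 0.057).

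The remaining calls in brain were usp48, a nuclear factor kappa B and DNA repair enzyme, at 0.26 ± 0.05 (SE, adjusted p = 0.0016), and the row USP6 at -0.28 ± 0.08 (SE, adjusted p = 0.021). The USP6 call was lost without brain 6 months replicate 3 or replicate 4, with adjusted p up to 0.077. In skin usp54a rose. It had 27.2, 21.1, 17.4, 20.8 and 18.3 CPM at 36 months and 14.6, 17.98, 17.8, 18.3 and 18.9 CPM at 42 months, against 11.7, 16.6, 13.7, 8.77 and 11.9 CPM at 6 months. A single old library, of 42 months, lay within the young range, and the log2 fold change was 0.61 ± 0.14 (SE, adjusted p = 0.0066).

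USP2 is a deubiquitinase whose RNA cycles with the circadian clock in mammals and which acts on clock proteins. Zebrafish has 3 rows. usp2a carries a letter, USP2 (3 of 3) is named usp2b in the name table, and USP2 (2 of 3) has the same implied exon length of 1188 bases as USP2 (3 of 3). The sequences of the pair were not compared, and whether reads of one copy were counted for the other was not tested. The values of the pair are therefore uncertain as separate measurements, and they moved together. Both rows are counted as members.

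**Figure D4:**
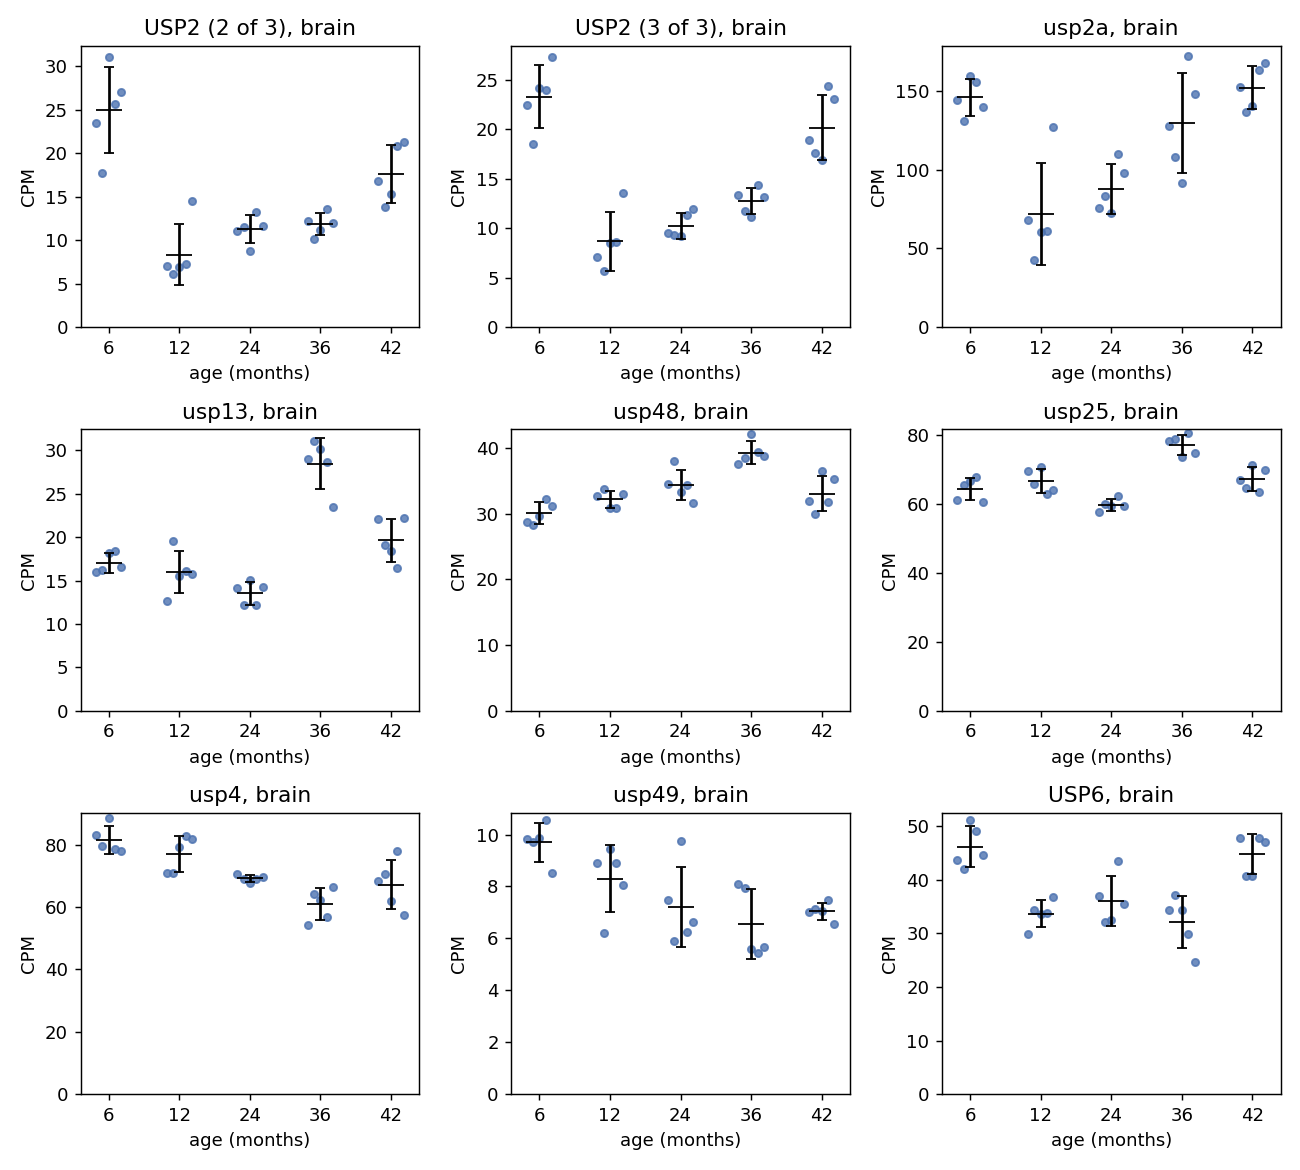
Level of 9 members in brain by age, in CPM, with points for the 5 libraries of each age and a bar for the mean ± SD. USP2 (2 of 3) averages 25.0, 8.36, 11.3, 11.8 and 17.6 CPM at 6, 12, 24, 36 and 42 months, usp13 and usp25 are highest at 36 months, and usp4, usp49 and USP6 are highest at 6 months.

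In brain USP2 (2 of 3) had 12.2, 10.2, 11.2, 13.6 and 12.0 CPM at 36 months and 16.8, 13.8, 15.4, 20.8 and 21.4 CPM at 42 months, against 23.4, 17.7, 31.0, 25.7 and 27.1 CPM at 6 months. Libraries of 36 months lay below all young ones, and those of 42 months overlapped with them. The log2 fold change was -0.79 ± 0.16 for USP2 (2 of 3) and -0.54 ± 0.14 for USP2 (3 of 3) (SE, adjusted p = 0.0018 and 0.0094). Between 24 and 6 months, where no transgene is listed, the values were -1.15 ± 0.19 and -1.18 ± 0.17 (SE, adjusted p = 0.00054 and 8.46e-05), and no library overlapped.

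In the same comparison usp2a had 75.4, 83.4, 72.7, 109.6 and 97.9 CPM at 24 months, against 144, 131, 159.5, 156 and 139.7 CPM at 6 months. Both groups stood apart, with a log2 fold change of -0.73 ± 0.20 (SE, adjusted p = 0.019). For old against young brain usp2a was not called, with 141 ± 25.9 CPM (SD, n = 10) and 146.04 ± 11.7 CPM (SD, n = 5).

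Clock genes moved along with these comparisons. Of 32 listed and found in brain, 16 were higher (50.0%, against 8.97% of all genes) and 8 were lower (25.0%, against 10.6%) in old fish. At 24 against 6 months 14 were higher (43.8%, against 6.83%) and 12 were lower (37.5%, against 7.06%). nr1d1, a repressor of the clock, averaged 196 CPM in old and 26.3 CPM in young brain, and npas2, an activator, 10.7 and 29.7 CPM. Per the study's methods, fish were sampled around noon and in the early afternoon. The part of the clock genes in the USP2 values was not tested.

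At 24 against 6 months, 4 of 47 members were higher in brain (8.51%, background 6.83%) and 11 were lower (23.4%, background 7.06%). This comparison shares its 6-month libraries with old against young, and 7 members were called the same way in both. The share of all genes called the same way in both is not given, so the count of 7 has no background. Beside the USP2 rows and usp19 at -0.17 ± 0.05, the smallest p values were those of usp22, the histone enzyme of the SAGA complex, usp10, a partner of the stress granule protein G3BP, and usp33. usp22 had 67.6, 74.1, 58.2, 68.9 and 53.3 CPM at 24 months, against 50.3, 48.2, 55.3, 50.5 and 46.7 CPM at 6 months. These overlapped in a single library, with a log2 fold change of 0.36 ± 0.08 (SE, adjusted p = 0.0071). usp10 was at -0.24 ± 0.06 and usp33 at -0.23 ± 0.06 (SE, adjusted p = 0.0076 and 0.012), each without overlap.

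The count in brain, given here without the shares of all genes in the same fits, moved with single libraries. It was 4 without brain 24 months replicate 2, 7 without replicate 1, 8 without replicate 4, 8 without 6 months replicate 3 or 5, and 9 without replicate 4, against 15 with all. The USP2 pair, usp22 and usp10 passed in every one of these fits, while usp19 was lost in 7 and usp33 in 2.

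In skin 4 of 46 members were higher at 24 than at 6 months (8.70%, background 10.7%) and 4 were lower (8.70%, background 9.49%). Of the 3 enzymes of free chains and the proteasome, usp5 and usp14 rose, while usp13 was not called, at -0.25 ± 0.45 on the log2 scale (SE, adjusted p = 0.74). usp5 had 122.6, 137.7, 136.8, 107.6 and 99.9 CPM at 24 months, against 72.9, 83.5, 73.7, 83.5 and 92.5 CPM at 6 months. usp14 had 43.1, 49.4, 54.1, 37.7 and 38.0 CPM at 24 months, against 21.2, 24.3, 25.3, 30.2 and 28.3 CPM at 6 months. Neither overlapped, with log2 fold changes of 0.57 ± 0.14 and 0.78 ± 0.20 (SE, adjusted p = 0.0054 and 0.0084). usp36 fell to 39.9, 51.2, 41.4, 47.0 and 41.9 CPM at 24 months, against 78.6, 70.2, 84.1, 59.0 and 61.3 CPM at 6 months, without overlap, at -0.67 ± 0.13 (SE, adjusted p = 0.0015). usp20 was at 0.55 ± 0.13, USP31 at 0.70 ± 0.21 and usp19 at -0.45 ± 0.12 on the log2 scale (SE, adjusted p = 0.0038, 0.021 and 0.013). The USP31 call was lost without skin 6 months replicate 3, 4 or 5 or 24 months replicate 3 or 4, with adjusted p up to 0.066, and usp19 was lost with library totals (adjusted p = 0.091).

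The split between directions in skin moved with the scale, to 6 higher (13.0%, against 17.3% of all genes) and 1 lower (2.17%, against 6.14%) with library totals, where the median of all genes was 0.13. The count over both directions was 5 without skin 6 months replicate 4, where the share of all genes is not given. In liver usp19 was the only 1 of 47 members called by edgeR at 24 against 6 months, at -0.93 ± 0.24 (SE, adjusted p = 0.037), where 1.88% of all genes were lower and 1.68% were higher. DESeq2 called 8 members there: usp19 and usp36 lower, and usp2a, usp14, usp39, USP38, usp53b and USP54 (2 of 2) higher. The share of all genes that DESeq2 called is not given, and the shares above are those of edgeR, so this count has no background. Library totals gave 4 higher (8.51%, against 4.17% of all genes) and 0 lower members (against 0.518%), with a median of all genes of 0.37 and usp19 at -0.62 (adjusted p = 0.35). Leaving out liver 24 months replicate 1 gave 4 calls, a count without the share of all genes beside it. The usp19 call was lost without liver 6 months replicate 1, 2 or 4 or 24 months replicate 2, 3 or 5, and without a filter.

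The 2 old ages differed from each other in brain at 15 of 47 members. Of these 9 were higher at 42 than at 36 months (19.1%, background 12.0%) and 6 were lower (12.8%, background 10.8%). USP38, which restrains interferon signalling in mammals, had 36.3, 29.3, 30.2, 33.9 and 30.8 CPM at 42 months, against 22.7, 24.1, 22.8, 23.3 and 23.9 CPM at 36 months. The ages did not overlap, with a log2 fold change of 0.46 ± 0.08 (SE, adjusted p = 0.00039). USP6 was higher by 0.48 ± 0.10, while usp13 was lower at -0.54 ± 0.10, usp1 at -0.22 ± 0.05 and usp25 at -0.20 ± 0.05 on the log2 scale (SE, adjusted p = 0.0014, 0.00092, 0.0031 and 0.0051). All 6 of the smallest p values, usp19 included, passed in every alternative run. Library totals gave 7 members higher (14.9%, against 9.26% of all genes) and 7 lower (14.9%, against 13.0%).

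In skin 3 of 46 members were higher at 42 than at 36 months (6.52%, background 4.98%) and 2 were lower (4.35%, background 5.05%). usp42, a histone H2B enzyme in mammals, had 14.6, 16.6, 21.0, 25.0 and 28.1 CPM at 42 months, against 47.3, 38.1, 58.0, 39.0 and 52.0 CPM at 36 months. The ages were far apart, with a log2 fold change of -1.16 ± 0.22 (SE, adjusted p = 0.0031). usp11 was at -0.55 ± 0.13, USP38 at 0.49 ± 0.14, USP24 at 0.64 ± 0.18 and usp14 at 0.70 ± 0.20 (SE, adjusted p = 0.013, 0.027, 0.028 and 0.029), and each of these 4 lost its call in at least 1 fit without a library, with adjusted p up to 0.072. The count was 3 without skin 36 months replicate 1 or 42 months replicate 4. It was 2 without 36 months replicate 3 or 42 months replicate 1 or 5. The shares of all genes in those fits are not given. Library totals gave 5 higher (10.9%, against 9.40% of all genes) and 1 lower (2.17%, against 2.52%), where the median of all genes was 0.15. In liver 0 members were called by edgeR, against 0.0713% of genes higher and 0.109% lower. There 13 members had an unadjusted p under 0.05, DESeq2 called usp42 at -1.20, and limma voom called 0. The share of all genes with an unadjusted p under 0.05 is not given, so the count of 13 has no background.

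A test of any difference among the 5 ages called 31 of 47 members in brain (66.0%, against 50.1% of all genes), 11 of 47 in liver (23.4%, against 7.28%) and 20 of 46 in skin (43.5%, against 49.0%). In brain the smallest p values belonged to usp1, usp13, the USP2 pair, usp25 and usp19, with adjusted p between 7.01e-07 and 8.66e-05. The called brain members had their highest mean level at 6 months for 9, at 12 for 9, at 24 for 4, at 36 for 6 and at 42 months for 3, and their lowest at 36 months for 12. The matching shares of all genes are not given, so these counts by age have no background. usp19, usp39 and USP38 were called in all 3 tissues, and usp8, usp9, usp45, usp46, usp53b, USP30 (2 of 3), USP30 (3 of 3) and USP21 in none, of which USP21 was not tested and USP30 (3 of 3) was tested in brain and liver alone.

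In liver usp14, USP38, usp39, usp28, usp5 and usp13 led this test, with adjusted p between 0.0028 and 0.022. Of the 11 called liver members, 7 had their highest mean at 24 months. The share of all genes highest at that age is not given, so this count has no background. For usp28 and usp13 that mean rested on liver 24 months replicate 1, at 91.0 and 38.0 CPM. The other libraries of 24 months had at most 0.1951 and 1.435 CPM. usp14 had 17.8, 25.7, 33.5 and 24.3 CPM at 6 months, 34.0, 68.5, 47.3, 59.6 and 39.4 CPM at 24 months and 7.25, 17.4, 16.3, 14.3 and 13.1 CPM at 36 months. These 3 ages did not overlap. USP38 had 5.70, 16.2, 9.80, 12.07 and 8.95 CPM at 24 months, against 5.36, 3.42, 7.01 and 7.04 CPM at 6 months. usp39 had 6.09, 27.9, 6.97, 22.5 and 16.7 CPM at 24 months, against 7.99, 8.06, 6.94 and 6.53 CPM at 6 months. Each overlapped with the 6-month range in the lowest libraries of 24 months.

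Part of the liver count rested on liver 24 months replicate 1. Without it 7 members were called, and usp28, usp13, usp37 and USP43 (2 of 2) were lost, with adjusted p of 0.33, 0.81, 0.063 and 0.056. usp14 remained at 0.0020, USP38 at 0.0022 and usp39 at 0.0041. The count was also 7 without liver 6 months replicate 2, 3 or 4 or 42 months replicate 2. The shares of all genes called in these fits are not given, so these counts have no background.

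In skin usp36, usp14, usp54a, usp42, USP38 and usp5 led, with adjusted p between 0.00013 and 0.0012. usp14 was lowest at 36 months in skin as in liver, with 14.1, 13.4, 13.3, 24.0 and 25.1 CPM, against 43.1, 49.4, 54.1, 37.7 and 38.0 CPM at 24 months.

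Within an age the members varied least in brain. The median SD of log2 CPM was 0.132 there, against 0.257 in skin and 0.421 in liver. Some skin members varied with muscle RNA. With the summed muscle markers as a covariate, a doubling of the markers went with a log2 change of 0.92 ± 0.09 for usp28, 0.65 ± 0.07 for usp13, 0.66 ± 0.10 for usp53b and 0.17 ± 0.05 for USP15 (SE, adjusted p = 7.64e-08, 9.48e-07, 7.20e-05 and 0.026). No other tested member passed.

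**Figure D5:**
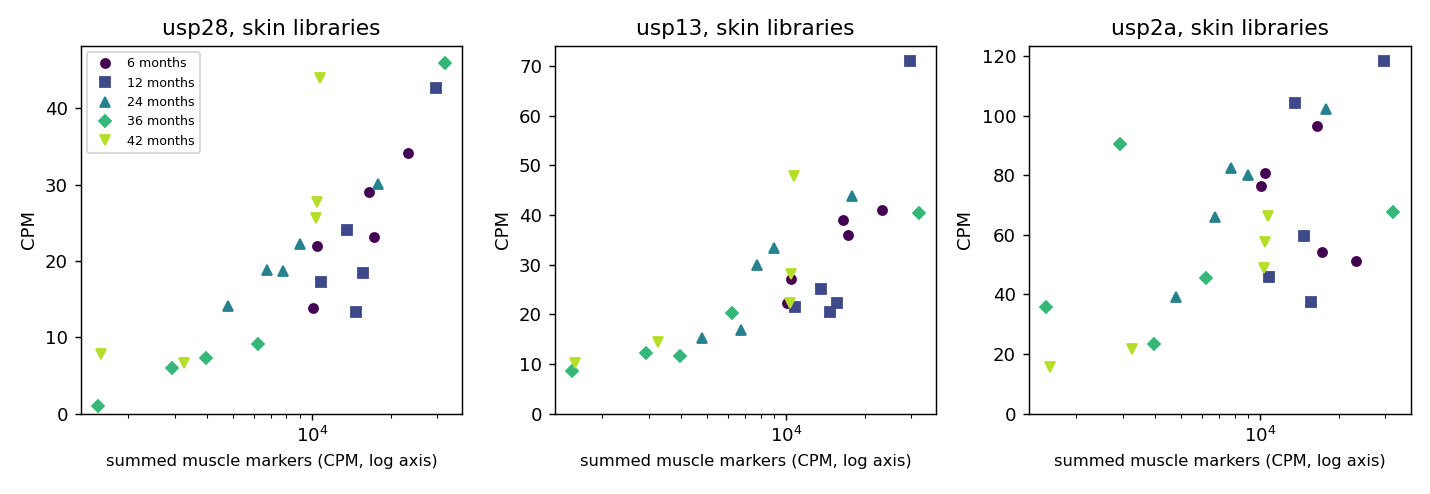
CPM of usp28, usp13 and usp2a in the 25 skin libraries against the summed CPM of 8 skeletal muscle markers on a log axis, with a symbol for each age. The skin library with 1534 CPM of muscle markers has 1.05 CPM of usp28 and the library with 32110 CPM has 45.9.

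Age comparisons in skin were repeated with that covariate. For old against young it called usp19 at -0.60 ± 0.12 and usp54a at 0.64 ± 0.16, lost usp25, and called usp39 at -0.46 ± 0.15 (SE, adjusted p = 0.041). For 42 against 36 months it called 7 members, with usp28 at 1.09 ± 0.26 (SE, adjusted p = 0.010), which was not called without it, and 9 members for 24 against 6 months. The shares of all genes called with the covariate are not given, so these counts have no background.

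Other genes of the ubiquitin system, from lists of the same kind, gave the following counts for old against young. They are read against 8.97% of all genes higher and 10.6% lower in brain, 0.0380% and 0.152% in liver, and 7.81% and 7.32% in skin. Of 45 tested deubiquitinases outside the numbered family, 11 rose (24.4%) and 1 fell (2.22%) in old brain. In skin 6 of them rose (13.3%) and 2 fell (4.44%), and liver had 0 calls. otud4, an ovarian tumour type enzyme, rose by 0.66 ± 0.08 in brain on the log2 scale (SE, adjusted p = 1.27e-05), and fam63a, of the MINDY type, rose in brain at 0.57 ± 0.09 and in skin at 0.37 ± 0.10 (SE). Of 18 cofactors of the family, 1 rose (5.56%) and 2 fell (11.1%) in old brain, 1 rose and 1 fell in skin (5.56% each), and liver had 0 calls, with g3bp1, the partner of usp10, at -0.31 ± 0.07 in brain (SE, adjusted p = 0.0024). The other 2 calls were wdr48 and atxn7l2b in brain, and atxn7l2b and ATXN7 were those in skin.

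Of 9 E1 enzymes, UBA7 at 0.54 ± 0.12 and uba3 at 0.18 ± 0.05 were higher in brain (22.2%, against 8.97% of all genes), and 0 were called in liver or skin. Of 37 E2 enzymes, 2 were higher (5.41%) and 0 lower in brain, and 0 were higher and 1 was lower (2.70%, against 0.152%) in liver. In skin 1 E2 enzyme was higher (2.70%, against 7.81%) and 5 were lower (13.5%, against 7.32%), led by ube2d3 at -0.51 ± 0.09 (SE, adjusted p = 0.0012). None of 4 tested ubiquitin genes was called in any tissue. Of the interferon response genes, 5 of 25 were higher (20.0%) and 0 lower in brain, 0 of 26 were called in liver, and 2 of 26 were higher and 2 lower in skin (7.69% each). Clock genes gave 0 calls of 32 in liver, and 11 higher (34.4%) and 4 lower (12.5%) in skin. The genes fbxl22, CR381676.2 and CU571169.4, which only the name table calls USP3, usp12b and usp18, were tested and not called in any age comparison within a tissue. Of these 3, 1 was called higher for the age effect of brain against liver, where 4.70% of all genes were called.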

How the data were processed

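Per the labels and the study's methods, RNA of each tissue was sequenced single-end without strand information on an Illumina HiSeq. The submitters' processing notes name CASAVA 1.8.0, TopHat2 2.0.6, HTSeq and the genome build Zv9. The authors deposited read counts per gene and RPKM values, which they computed from exon lengths and library sizes. Of the deposited columns, 73 were matched to labels, 2 columns of per-sample values matched no label and were not used, and 2 libraries with conflicting tissue labels were put in no group. A share of rows without a symbol, 351 of 32677, could not be members.

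Counts were tested with edgeR 4.0.16 (quasi-likelihood, TMM, low counts removed by filterByExpr) in R 4.3.3, within each tissue with all ages in the fit, and over 73 libraries for tissue comparisons and differences of the age effect. All adjusted p values are Benjamini-Hochberg values over all genes tested, with a threshold of 0.05. CPM were used for levels of a gene within a tissue and, scaled over all 73 libraries, between tissues. RPKM were used for levels between genes and for the family sums of the tissues. The depth per sample was 29006611 to 58166358 counts, and no interval for counting error is given beside SD and SE. Per the labels, libraries of an age and tissue come from separate fish or pools. The scripts were tested on simulated data with changes of 1.5-fold, 2-fold and 4-fold. Each fold was set in a different random set of the genes that passed the filter, drawn once. The recovered shares are thus not those of the members. Old against young recovered 0%, 7.46% and 28.8% of these in liver, 70.1%, 59.7% and 86.4% in brain and 34.3%, 58.2% and 78.8% in skin. The age effect of brain against liver recovered 4.48%, 19.4% and 34.8%. Few or 0 calls in liver therefore do not show a lack of change.

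The members and lists, and the grouping by role, were chosen with earlier results of these data known. Named members are all those called in old against young, up to 6 with the smallest p in other comparisons, the 6 highest and 4 lowest by RPKM, the 6 most extreme called values between tissues each way, and lettered pairs. Alternatives were RLE size factors, no filter, DESeq2 1.42.0, limma 3.58.1 voom, fewer ages, single ages, leaving out each library and a fish block. Each library was left out in the fits within a tissue. For the differences of the age effect only the 14 libraries of 6 months were left out in turn. Library totals, the muscle covariate and the fits without libraries high in intestine or low in liver markers were chosen after seeing the data. Tissues of the same fish pair libraries by design: over 20141 genes, 43 same-fish pairs had a median correlation of deviations of 0.125 (between -0.229 and 0.318), against -0.021 over 312 other pairs of the same age.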

Additional observations from a re-analysis of the deposited data

Results flagged for a closer look

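Groups of 4 or 5 libraries were examined for the members called in old against young in that tissue. To these were added usp28, usp13 and usp2a in liver and usp28, usp13 and usp42 in skin, which were picked by hand. Of 105 groups, 10 held a library far from the others, a count without a chance rate since members were picked. In liver, 24 months replicate 1 accounted for 3 of them, with 90.98 CPM of usp28 (the other 4 libraries had at most 0.1951), 38.05 CPM of usp13 and 73.91 CPM of usp2a. This library was also the lowest in liver markers, and the part of other tissues in its values was not tested. Liver 36 months replicate 1 had 1.556 CPM of usp13, above the other libraries of that age. In brain, usp16 had 14.84 CPM in 12 months replicate 5, where the others had 24.22 to 27.39, and 26.63 CPM in 36 months replicate 5, where the others had 21.07 to 22.67. Brain 12 months replicate 5 also had 14.56 CPM of USP2 (2 of 3), where the others had 6.074 to 7.232.

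In skin, usp28 had 45.94 CPM in 36 months replicate 2, the library with the highest muscle markers (32110 CPM), and usp13 had 70.92 CPM in 12 months replicate 4, the library with the next highest (29730 CPM). Their part was not tested beyond the covariate fit. Skin 42 months replicate 1 had 14.62 CPM of usp54a, below 17.77 to 18.87 in the others.

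For 3 members the effect of old against young differed between tissues in the test of the difference itself. These were usp19 at 0.84 for brain minus liver, USP53 (1 of 2) at -1.39 for brain minus liver and usp33 at -0.68 for liver minus skin, on the log2 scale. The share of members called was 4.17% for brain against liver (4.70% of all genes) and 2.08% for liver against skin (2.93% of all genes). The usp19 call held in all alternatives given above, while those of USP53 (1 of 2) and usp33 were lost in some of them.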

How the results depend on the processing

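Of 1704 alternative values for 78 gene results, 1559 kept direction and call, 10 changed direction and the rest lost the call. Counts of called members below had 1, 1, 0 and 11 in liver with all libraries for old against young, 24 against 6 months, 42 against 36 months and any age. The counts of this paragraph are given without the shares of all genes called under the same settings. Counts without the libraries high in intestine markers are not given, since 1 library was left at 12 months in liver. Old against young in liver gave 0 without a filter, with voom, with only 6, 36 and 42 months and with library totals, and 2 with DESeq2. At 24 against 6 months liver gave 0 without a filter, 8 with DESeq2 and 4 with library totals. At 42 against 36 months liver gave 1 with DESeq2 and 1 with library totals. Any age in liver gave 6 with voom. Skin gave 5 for old against young with DESeq2. Brain against liver gave 24 within 24 months and 21 within 42 months, and liver against skin gave 20, 21 and 21 within 12, 24 and 42 months. Differences of the age effect gave, for brain against liver, 1 with voom, the replicate block (fish), strict symbols and library totals; for brain against skin, 1 with the block; and for liver against skin, 0 without a filter, with voom, the block and library totals. The block changed no other call count by over 1.5 times. Leaving out 1 library at a time gave 10 to 13, 4 to 17, 11 to 16 and 27 to 32 calls in brain, 0 to 1, 0 to 4, 0 to 0 and 7 to 11 in liver, and 2 to 5, 5 to 9, 2 to 7 and 14 to 20 in skin, in the order of comparisons above. For the differences, where only the 14 libraries of 6 months were left out in turn, the counts were 1 to 2, 0 to 0 and 0 to 2. Library totals turned brain against liver to 0.38 for usp36, 0.36 for USP2 (3 of 3), 0.43 for USP2 (2 of 3) and 0.57 for USP53 (1 of 2), and liver against skin to -0.089 for USP24. Single ages turned USP2 (2 of 3) to 0.030 and USP53 (1 of 2) to 0.33 for brain against liver at 6 months, usp13 to 0.17 for brain against skin at 36 months, and usp28 to 0.82 and usp53b to 0.012 for liver against skin at 24 months. Their cause was not tested. Depth leaves USP21 undecided within each tissue.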

Other observations

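The level of the USP2 pair differed between skin libraries of the same age. USP2 (2 of 3) had 9.86, 3.20, 35.6, 26.1 and 28.7 CPM at 6 months, 3.29, 2.82, 15.8, 18.2 and 23.5 CPM at 12 months and 7.57, 10.9, 41.5, 65.2 and 45.5 CPM at 24 months. It had 45.1, 46.2, 39.1, 22.5 and 39.4 CPM at 36 months and 4.91, 4.41, 27.3, 28.1 and 27.1 CPM at 42 months. Replicates 1 and 2 were the lowest at every age but 36 months. In the same libraries and order, fkbp5, a glucocorticoid-induced gene picked after its values were seen, had 654, 50.7, 1993, 1082 and 1613 CPM at 6 months and 67.1, 40.9, 736, 1053 and 1885 CPM at 42 months. klf9, picked in the same way, had 52.3, 3.66, 212, 82.1 and 139 CPM at 6 months and 13.5, 19.8, 89.2, 146.06 and 282 CPM at 42 months. What these libraries share was not tested, and old against young skin was not called for either USP2 row.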
